A study of Mus musculus with 12 samples.

Results

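The Hox genes of paralog groups 1 to 3 lie at the anterior end of the HoxA, HoxB and HoxD clusters and are the genes of the hindbrain, the branchial arches and the uppermost spine. 7 of them are described here (Hoxb1, Hoxd1, Hoxa2, Hoxb2, Hoxa3, Hoxb3 and Hoxd3), of 21851 genes with a promoter that could be scored. They were taken by name, not by any measured value. For each gene, every accessible domain was collected that overlapped the promoter (1 kb on either side of the transcription start), the gene body or the stretch up to the next Hox gene of higher number in the same cluster. These loci span 134.3 kb in all.

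Accessibility was measured by ATAC-seq, in which a transposase cuts and tags open DNA, in mouse embryonic stem cell-derived cells on the way to motor neurons. The 6 groups held 2 samples each. Embryoid bodies (EB) of the Ainv15(iCre) line received no patterning signal. Progenitors of the same line had 2 days of retinoic acid (RA, 1 µM) and the Smoothened agonist SAG (0.5 µM), and all day 4 cells received the same signals for 4 days. At day 4, the lines iHoxc6, iHoxc9 and iHoxc10, named Ainv15(iFlag.Hoxc6), Ainv15(iFlag.Hoxc9) and Ainv15(iFlag.Hoxc10), had been given 3 µg/ml doxycycline (Dox) from day 2 on, for 48 h, and each then made 1 Flag-tagged Hox protein from a single transgene at the Hprt locus. The noDox cells were of the iHoxc6 line without Dox. No induced gene is a member of the 7, since all come from the HoxC cluster. The authors deposited 1 list of domains for each group, so no spread between samples can be given, no difference below was tested and sequencing depth is unknown.

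The 6 lists held 56232 to 94875 domains and covered 17.8 to 29.7 Mb. Relative to noDox, the whole list covered 0.833 as much for iHoxc6, 0.597 for iHoxc9 and 0.676 for iHoxc10, and every ratio below is to be read against these. For iHoxc9 and iHoxc10, cell line and Dox cannot be told apart in the comparison with noDox, and the noDox list was deposited in another format than the rest. Its name also carries a p threshold, which the names of the other lists do not. The day in its name is other than the day 4 of its labels. The lists were not spaced alike either: some domains lay only 37 bp apart in noDox and 103 bp apart in progenitors. In EB, iHoxc6, iHoxc9 and iHoxc10 none lay closer than 201 bp. Whether noDox and progenitors were called in the same way as the rest is unknown and was not tested. It bears on every ratio to noDox and on every comparison with progenitors. Between progenitors and day 4, time cannot be told apart from line. Marker promoters set EB apart from the other lists through the pluripotency genes alone. The promoters of the pluripotency genes Pou5f1, Nanog, Zfp42 and Esrrb had a domain in 4 of 4 cases in EB, 1 of 4 in progenitors and 0 of 4 in every day 4 list, while the ventral neural progenitor markers had one in 4 of 4 cases in all 6 lists, EB included, and those of motor neurons in 4 of 5 in EB, 5 of 5 in progenitors and iHoxc10, 4 of 5 in noDox and iHoxc6 and 3 of 5 in iHoxc9. By covered length Esrrb was wider in noDox (1277 bp) than in EB (922 bp). Endoderm markers had a promoter domain in 1 to 3 of 3 cases over the lists, mesoderm in 1 to 2 of 2, glia in 1 of 2 and neural crest in 0 to 2 of 2.

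Hox genes are transcribed in the order in which they lie along the cluster, and the anterior groups are the first to answer RA. RA acts through nuclear receptors, which bind pairs of short half-sites set in a row (direct repeats). A few such repeats in and beside the anterior Hox genes are known to drive their hindbrain expression. Hox proteins themselves bind short AT-rich sites, often together with partner proteins, and anterior Hox genes hold sites through which Hox proteins keep their own genes on.

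The sequences of 3 such repeats are shown first because each lay in an accessible domain of a group 3 gene. A search of the 7 loci for direct repeats with 5 bases between the half-sites found 3 matches, 1 in an intron of Hoxa3, 1 in an intron of Hoxb3 and 1 in an intron of Hoxd3. The windows below, from the mouse reference genome GRCm38/mm10, run 50 bases to each side of the repeat and are read along the gene. The first block of capitals marks a match to TGATNNAT, a form of the site that Hox proteins bind with a partner, and the second marks the repeat.

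Hoxa3, chr6:52175483-52175599, minus strand: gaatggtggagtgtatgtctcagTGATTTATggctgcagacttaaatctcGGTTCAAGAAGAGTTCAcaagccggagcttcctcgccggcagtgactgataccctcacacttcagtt
Hoxb3, chr11:96341186-96341302, plus strand: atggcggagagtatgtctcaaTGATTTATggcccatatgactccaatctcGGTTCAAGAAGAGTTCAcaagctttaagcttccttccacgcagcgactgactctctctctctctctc
Hoxd3, chr2:74741490-74741606, plus strand: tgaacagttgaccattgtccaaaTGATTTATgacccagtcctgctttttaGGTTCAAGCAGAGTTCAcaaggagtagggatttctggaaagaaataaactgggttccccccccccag

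The repeats of Hoxa3 and Hoxb3 were identical over all 17 bases. That of Hoxd3 differed from both by the substitution A9C, counted from 1 at the first base of the repeat and with the Hoxa3 or Hoxb3 base given first, so that 16 of 17 bases matched. In each of the 3 windows the same 8 bases, TGATTTAT, stood upstream of the repeat, with 19, 21 and 19 bases between them in Hoxa3, Hoxb3 and Hoxd3. Outside the repeat, 33 to 37 of the 100 flanking bases matched between any pair of windows when they were laid side by side without gaps. Since the spacing differs in Hoxb3, its upstream bases are then out of register with those of the other genes, so these counts understate likeness. Lined up on TGATTTAT instead, most letters before it are the same in Hoxa3 and Hoxb3. Across all 218562 merged accessible regions of the genome, the 17 bases GGTTCAAGNAGAGTTCA, on either strand, were found in 3, and these were the regions of Hoxa3, Hoxb3 and Hoxd3 from which the letters had been read. TGATNNAT was found in 6.1% of windows of 117 bases at the centre of all regions.

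The repeat was covered in full by a domain of progenitors, noDox, iHoxc9 and iHoxc10 in all 3 genes. In EB only the Hoxa3 repeat was covered, by a domain of 60 bp. In iHoxc6 the Hoxa3 and Hoxb3 repeats were covered and the Hoxd3 repeat was not. At Hoxd3 this contrast rests on narrow domains. Counted from the Hoxd1 start, the repeat lies at -21440 to -21424 and the iHoxc9 domain on it at -21446 to -21421. The nearest iHoxc6 domain lay beside it, at -21500 to -21478. The Hoxa3 and Hoxb3 repeats were thus accessible in every list from day 2 on. The region around the Hoxa3 repeat (chr6:52175030-52176639) was covered for 60 bp in EB, 1299 bp in progenitors, 1610 bp in noDox, 1138 bp in iHoxc6, 824 bp in iHoxc9 and 1310 bp in iHoxc10. The region around the Hoxb3 repeat (chr11:96340727-96342189) was covered for 238 bp in EB, 1149 bp in progenitors, 897 bp in noDox, 1026 bp in iHoxc6, 659 bp in iHoxc9 and 661 bp in iHoxc10. The region around the Hoxd3 repeat (chr2:74740473-74741998) had no domain in EB and was covered for 1497 bp in progenitors, 1115 bp in noDox, 547 bp in iHoxc6, 434 bp in iHoxc9 and 1011 bp in iHoxc10. Of the 434 bp in iHoxc9, 408 bp were a domain that did not reach the repeat. All 3 regions were thus wider in progenitors than in EB and remained in every day 4 list. A direct repeat of this spacing was held by 3 of the 13 member regions of 1000 bp or more, and by 0.808% of all regions of that width.

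3 more sequences are shown, chosen after their values were seen, as examples of domains that were lacking in 1 or more lists. The first is the whole domain at the Hoxb1 start, found in progenitors alone, with its match to TGATNNAT in capitals. The other 2 are the central 300 bases of the part shared by progenitors, noDox, iHoxc6 and iHoxc10 in the regions of Hoxb3 and Hoxd3 that were lacking in iHoxc9. In these, capitals mark every match, on either strand, to AGGTCA (a nuclear receptor half-site), TGATNNAT, TAAT (a homeodomain core) and ATAAA (part of the site that posterior Hox proteins prefer).

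Hoxb1 promoter, chr11:96365588-96365702, plus strand: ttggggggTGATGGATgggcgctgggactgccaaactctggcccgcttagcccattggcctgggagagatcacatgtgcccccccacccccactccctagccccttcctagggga
Hoxb3 distal intron, chr11:96324277-96324576, plus strand: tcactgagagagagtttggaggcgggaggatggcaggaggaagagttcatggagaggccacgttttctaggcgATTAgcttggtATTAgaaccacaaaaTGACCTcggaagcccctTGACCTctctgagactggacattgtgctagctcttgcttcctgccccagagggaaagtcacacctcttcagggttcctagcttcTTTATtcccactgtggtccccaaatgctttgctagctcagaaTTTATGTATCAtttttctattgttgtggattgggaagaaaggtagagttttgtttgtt
Hoxd3 distal intron, chr2:74730442-74730741, plus strand: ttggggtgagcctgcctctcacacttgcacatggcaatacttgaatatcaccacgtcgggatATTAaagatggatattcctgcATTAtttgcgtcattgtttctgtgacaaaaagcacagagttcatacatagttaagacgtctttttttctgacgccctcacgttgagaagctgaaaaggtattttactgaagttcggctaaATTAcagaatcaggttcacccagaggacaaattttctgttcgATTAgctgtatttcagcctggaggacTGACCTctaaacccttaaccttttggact

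The Hoxb3 sequence held 2 matches to AGGTCA, 2 to TAAT, 2 to ATAAA and 1 to TGATNNAT, of which an ATAAA match overlapped the TGATNNAT match. The Hoxd3 sequence held 1 match to AGGTCA, 4 to TAAT, 0 to ATAAA and 0 to TGATNNAT. Among windows of 300 bases centred on all regions, AGGTCA was present in 20.2%, TAAT in 72.8%, ATAAA in 50.5% and TGATNNAT in 14.6%. For windows of 115 bases, the length of the Hoxb1 domain, TGATNNAT was present in 5.98%. A match is a description of these letters and not evidence of binding.

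The 7 loci held few domains in EB and were widely covered in progenitors. In such bulk samples, fewer open cells and less accessibility per cell cannot be told apart. Domains covered 3237 bp (2.41%) of them in EB and 22137 bp (16.5%) in progenitors. The covered length was 28859 bp (21.5%) in noDox, 24875 bp (18.5%) in iHoxc6, 11225 bp (8.36%) in iHoxc9 and 26367 bp (19.6%) in iHoxc10. Relative to noDox this was 0.862 for iHoxc6, 0.389 for iHoxc9 and 0.914 for iHoxc10, so iHoxc9 lay below its whole-list ratio and iHoxc10 above it. The annotated Hoxa3 transcript starts beyond Hoxa4 and runs over other Hox genes. With Hoxa3 ended at Hoxa4, the 109.9 kb left held 2537 bp in EB, 17836 bp in progenitors, 22484 bp in noDox, 19294 bp in iHoxc6, 7369 bp in iHoxc9 and 19144 bp in iHoxc10. The ratios to noDox were then 0.858, 0.328 and 0.851 for iHoxc6, iHoxc9 and iHoxc10.

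**Figure D1:**
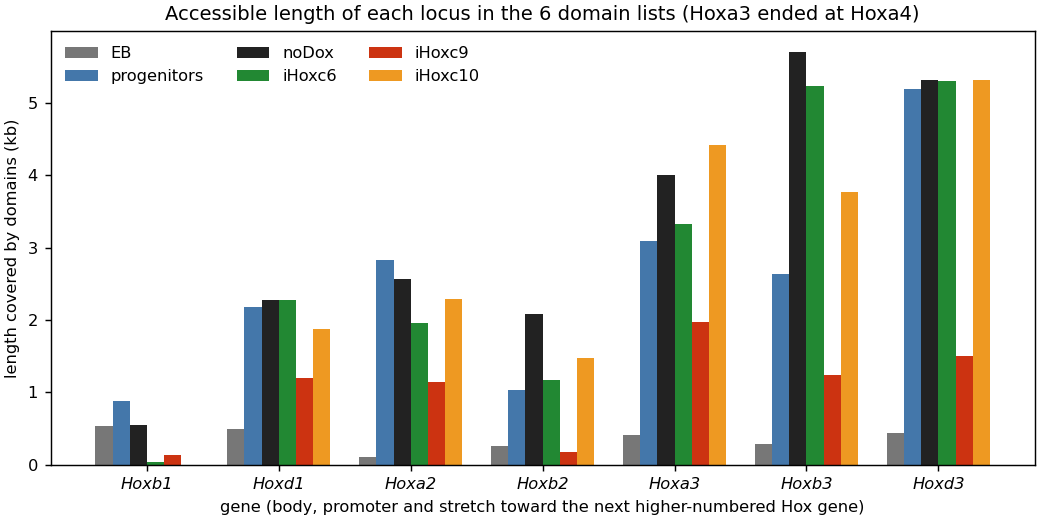
Length covered by domains in kb (vertical axis) in each of the 7 loci, with 1 bar for each of the 6 pooled lists and no error bars because there is 1 list a group; Hoxa3 is ended at Hoxa4. Bars of EB are low in all loci but Hoxb1, where EB (533 bp) is close to noDox (552 bp), and the iHoxc9 bar is below the noDox bar in every locus.

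From EB to progenitors, 5 of the 6 members with at least 200 bp in progenitors had a covered length (body and 1 kb upstream) of 2 times that in EB or more, against 11.4% of all genes. The 5 were Hoxa2, Hoxb2, Hoxa3, Hoxb3 and Hoxd3, and the other was Hoxd1, which went from 399 to 788 bp. Of the 42 regions that progenitors held in the loci, 26 had no domain in EB, near the genome's share of 54.6%. The region at the Hoxa2 start went from 43 to 2802 bp and was among those already marked by a small domain in EB.

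Hoxb1, the group 1 gene of rhombomere 4 and the facial motor neurons, was the least accessible member at day 4. Its locus, with 11.7 kb of DNA toward Hoxb2, was covered for 533 bp in EB, 884 bp in progenitors, 552 bp in noDox, 40 bp in iHoxc6, 131 bp in iHoxc9 and 0 bp in iHoxc10. The lists of the induced lines were thus lower than the other 3, and iHoxc10 had no domain. The domain printed above, from 164 to 50 bases before the start, was the only one at the promoter in progenitors. In EB and noDox the promoter window held a domain of 25 and 31 bp, each over a coding exon, and in the 3 induced lines it held none. A region 1.7 kb upstream (chr11:96363934-96364237), between genes, was covered for 224 bp in EB and 304 bp in progenitors and was lacking in all 4 day 4 lists. A region 11.1 kb upstream (chr11:96354438-96354919), in an exon of the antisense transcript Hoxb3os, was covered for 284 bp in EB, 439 bp in progenitors, 454 bp in noDox, 40 bp in iHoxc6, 131 bp in iHoxc9 and 0 bp in iHoxc10. This region made up most of what noDox covered at Hoxb1.

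Hoxd1, a group 1 gene known from nociceptive sensory neurons, kept an accessible start throughout. Its locus was covered for 496 bp in EB, 2176 bp in progenitors, 2277 bp in noDox, 2281 bp in iHoxc6, 1200 bp in iHoxc9 and 1878 bp in iHoxc10. It had only 5 regions, of which 3 were held by all 6 lists. One lay on the start itself (chr2:74762629-74763388) and was covered for 357 bp in EB, 752 bp in progenitors, 648 bp in noDox, 520 bp in iHoxc6, 533 bp in iHoxc9 and 502 bp in iHoxc10. At this start the day 4 lists lay within 502 to 648 bp, and iHoxc9 was as wide as iHoxc6 and iHoxc10. The other two lay 13.2 and 9.9 kb upstream, in exons of the long non-coding RNA Haglr. They went from 53 and 44 bp in EB to 720 and 668 bp in progenitors, and in iHoxc9 were covered for 427 and 240 bp against 875 and 754 bp in noDox. The lower iHoxc9 coverage of the Hoxd1 locus was thus mostly in these upstream regions and not at the start, which a Haglr exon also overlaps.

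**Figure D2:**
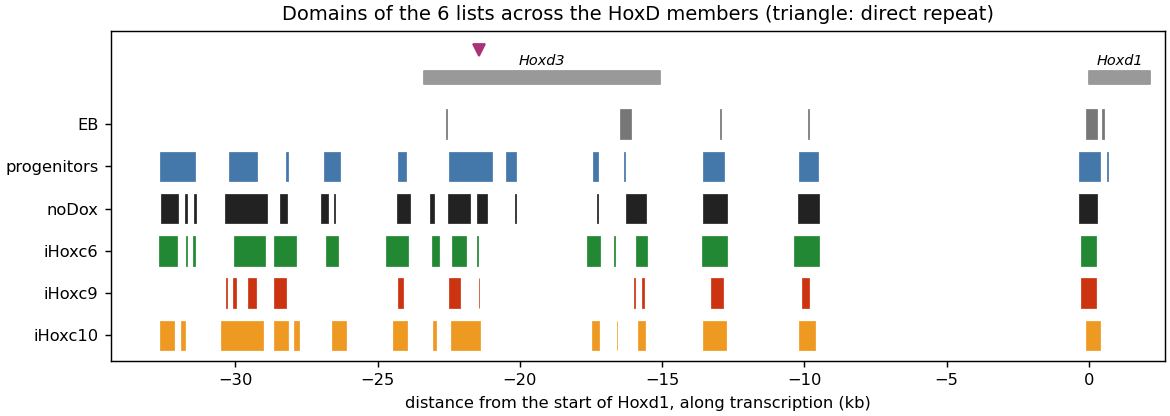
Domains of the 6 lists (rows) along Hoxd3 and Hoxd1, as distance in kb from the Hoxd1 start along transcription; grey boxes are gene bodies and the triangle is the direct repeat of Hoxd3. The start of Hoxd1 at 0 has a domain in all rows, and the iHoxc9 row is sparse across Hoxd3 and its upstream stretch.

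Hoxa2, the selector gene of the second branchial arch, carried the widest single region of the 7 loci. Its locus was covered for 112 bp in EB, 2827 bp in progenitors, 2562 bp in noDox, 1951 bp in iHoxc6, 1139 bp in iHoxc9 and 2291 bp in iHoxc10. In every list but EB, nearly all of this was 1 region of 3343 bp over the start and the first coding exon (chr6:52163630-52166972), which also holds an exon of the antisense transcript Hoxaas2. Within it, 43 bp were covered in EB, 2802 bp in progenitors, 2374 bp in noDox, 1793 bp in iHoxc6, 1139 bp in iHoxc9 and 2227 bp in iHoxc10. Progenitors were highest and iHoxc9 was the lowest list apart from EB. The region held 8 matches to TGATNNAT, a motif with at least 1 match in 25.4% of all regions of 1000 bp or more. That share counts regions and not matches, so it does not show whether 8 is many for a region this wide.

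Hoxb2, a hindbrain gene and a known target of Egr2, had the lowest whole-locus ratio of iHoxc9 to noDox of the 7 members. Its locus was covered for 263 bp in EB, 1036 bp in progenitors, 2076 bp in noDox, 1170 bp in iHoxc6, 181 bp in iHoxc9 and 1469 bp in iHoxc10. EB and iHoxc9 were the low lists, and the ratio of iHoxc9 to noDox was 0.0872. Over the body and 1 kb upstream alone, Hoxb3 was lower (0.0553) than Hoxb2 (0.0957). The region on its start (chr11:96351028-96352174) had no domain in EB and was covered for 144 bp in progenitors, 858 bp in noDox, 520 bp in iHoxc6, 28 bp in iHoxc9 and 399 bp in iHoxc10. The region on its coding exons (chr11:96352527-96353450) was covered for 235 bp in EB, 787 bp in progenitors, 668 bp in noDox, 80 bp in iHoxc6, 0 bp in iHoxc9 and 803 bp in iHoxc10. Here iHoxc10 was as wide as progenitors, while iHoxc6 and iHoxc9 were low. Another region, 1.5 kb upstream (chr11:96349834-96350397), was covered for 34 bp in progenitors, 410 bp in noDox, 388 bp in iHoxc6 and 219 bp in iHoxc10, with none in EB or iHoxc9.

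Hoxa3, needed for the thymus and the parathyroid, was the member with the highest iHoxc10 value relative to noDox. Up to Hoxa4 it was covered for 410 bp in EB, 3091 bp in progenitors, 4003 bp in noDox, 3324 bp in iHoxc6, 1971 bp in iHoxc9 and 4415 bp in iHoxc10. The region on an internal coding exon (chr6:52172327-52173096), which overlaps the transcript Gm15050, varied little from day 2 on, with 292 bp in EB, 580 bp in progenitors, 725 bp in noDox, 627 bp in iHoxc6, 555 bp in iHoxc9 and 581 bp in iHoxc10. An intronic region further upstream (chr6:52187218-52187842) was covered for 625 bp in progenitors, 289 bp in noDox and 261 bp in iHoxc10, and was lacking in EB, iHoxc6 and iHoxc9. Of the 7 members, Hoxa3 had the only promoter, at the start used here, with a domain in iHoxc9 and none in any other list. That domain spanned 271 bp just before the distal start (chr6:52213268-52213538), in exons of Hoxaas3 and of another Hoxa3 transcript, which lies beyond Hoxa6. The pattern differed at the start of a further coding Hoxa3 transcript (chr6:52183855), which is not among the gene models used. There progenitors were covered for 321 bp and iHoxc10 for 413 bp, and the other lists, iHoxc9 included, had no domain.

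**Figure D3:**
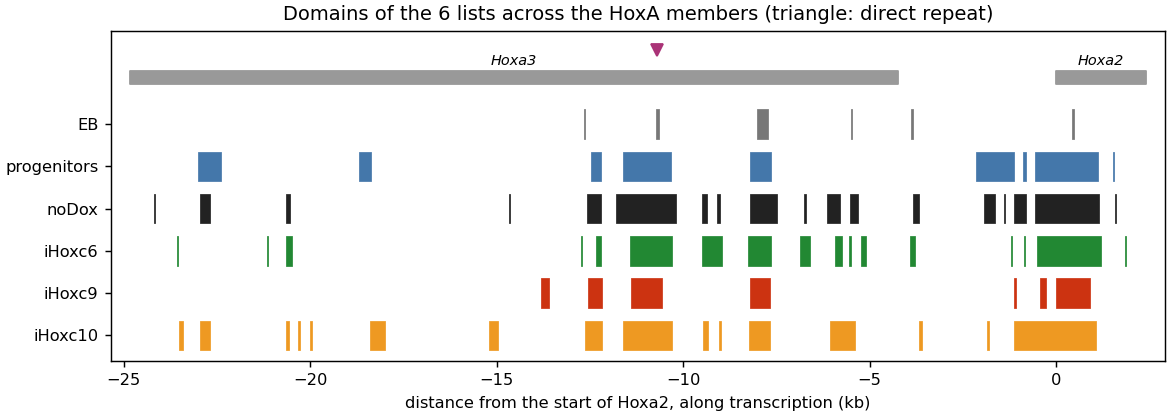
Domains of the 6 lists (rows) along Hoxa3, ended at Hoxa4, and Hoxa2, as distance in kb from the Hoxa2 start along transcription; grey boxes are gene bodies and the triangle is the direct repeat of Hoxa3. The broad domains at the Hoxa2 start and around the repeat are broad in all rows but EB, where they are narrow.

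Hoxb3, a gene of the caudal hindbrain, was covered more widely in progenitors than in EB and more widely again in noDox. Its locus was covered for 285 bp in EB, 2637 bp in progenitors, 5703 bp in noDox, 5226 bp in iHoxc6, 1246 bp in iHoxc9 and 3774 bp in iHoxc10. noDox and iHoxc6 were the high lists and EB and iHoxc9 the low ones. Of its 23 regions, noDox held 16, and 10 of these had no domain in progenitors. One of them, in an intron 7.0 kb upstream of the start (chr11:96336552-96336970), was held by all 4 day 4 lists and by no earlier one, with 257 bp in noDox, 333 bp in iHoxc6, 267 bp in iHoxc9 and 364 bp in iHoxc10. Another, 10.0 kb upstream (chr11:96333520-96334047), was held by noDox (450 bp) and iHoxc6 (399 bp) alone, the pair that shares a cell line. The distal intronic region printed above (chr11:96324097-96324813) had no domain in EB or iHoxc9 and was covered for 592 bp in progenitors, 652 bp in noDox, 549 bp in iHoxc6 and 473 bp in iHoxc10. It is distal only to the start used here. Part of it lies within 1 kb of the start of a longer coding Hoxb3 transcript, 20.4 kb upstream. A region on a coding exon just past the start (chr11:96343934-96344801) had no domain in EB and was covered for 301 bp in progenitors, 868 bp in noDox, 754 bp in iHoxc6, 92 bp in iHoxc9 and 614 bp in iHoxc10. Another coding exon region (chr11:96345062-96346242) was covered for 47 bp in EB, 86 bp in progenitors, 665 bp in noDox, 435 bp in iHoxc6, 0 bp in iHoxc9 and 889 bp in iHoxc10.

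Hoxd3, which patterns the atlas and axis vertebrae, was alike in progenitors, noDox, iHoxc6 and iHoxc10 and low in the other two lists. Its locus was covered for 438 bp in EB, 5185 bp in progenitors, 5311 bp in noDox, 5302 bp in iHoxc6, 1501 bp in iHoxc9 and 5317 bp in iHoxc10. The ratio of iHoxc9 to noDox was 0.283. Of the 9 regions held by both progenitors and noDox, 4 had no domain in iHoxc9. The widest of them, printed above (chr2:74730314-74731617), was covered for 1218 bp in progenitors, 799 bp in noDox, 685 bp in iHoxc6 and 624 bp in iHoxc10. A region 3.2 kb upstream of the start (chr2:74736009-74736862) was covered for 568 bp in progenitors, 263 bp in noDox, 393 bp in iHoxc6 and 468 bp in iHoxc10, with none in EB or iHoxc9. It spans the start of another coding Hoxd3 transcript. In the opposite direction, a region 4.8 kb upstream (chr2:74734352-74735223) was wider in iHoxc9 (398 bp) than in noDox (255 bp), and was covered for 767 bp in iHoxc6 and 637 bp in iHoxc10. It was the only 1 of the 33 regions held by both progenitors and noDox, over all 7 loci, that was not less covered in iHoxc9 than in noDox. The count was thus 32 of 33 for iHoxc9, against 87.7% of such regions in the genome, 24 of 33 for iHoxc6, against 70.9%, and 21 of 33 for iHoxc10, against 83.8%.

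**Figure D4:**
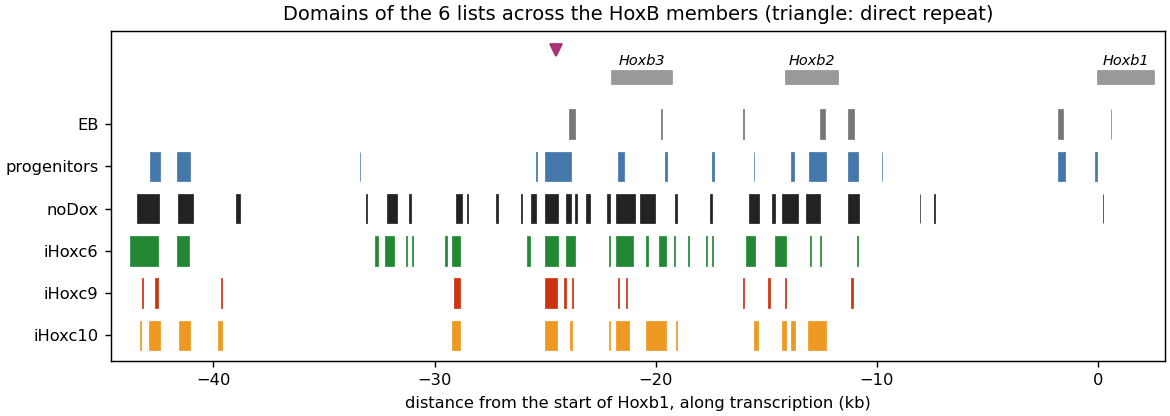
Domains of the 6 lists (rows) along Hoxb3, Hoxb2 and Hoxb1, as distance in kb from the Hoxb1 start along transcription; grey boxes are gene bodies and the triangle is the direct repeat of Hoxb3. Within 10 kb upstream of the Hoxb1 start only the EB, progenitor and noDox rows have domains. A domain covers the repeat (-24516 to -24500 bp) in all rows but EB, whose nearest domain lies at -23899 to -23662 bp.

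A domain lay within 1 kb of the start in 4 of 7 members in EB, against 61.5% of all genes, and in 6 of 7 in progenitors, against 59%. At day 4 the count was 6 of 7 in noDox, 5 of 7 in iHoxc6, 6 of 7 in iHoxc9 and 5 of 7 in iHoxc10, against 58.1%, 58.2%, 55.1% and 54.8% of all genes. The 6 were not the same: noDox had Hoxb1 and not Hoxa3, and iHoxc9 had Hoxa3, at its distal start, and not Hoxb1. In iHoxc9 the promoter windows of Hoxb2 and Hoxb3 were covered for 146 and 92 bp, against 963 and 968 bp in noDox. Hoxa2, Hoxd1 and Hoxd3 had a promoter domain in every list. For Hoxd3 this holds at the start used here, that of its shortest coding transcript. At the start of another coding transcript, 3.1 kb upstream, EB and iHoxc9 had no domain. A further coding transcript starts 27.7 kb upstream, outside the locus used here, and every list had a domain at that start. There the window was covered for 248 bp in EB, 57 bp in progenitors and 499 bp in noDox. The induced lines had 40 bp in iHoxc6, 325 bp in iHoxc9 and 573 bp in iHoxc10. Hoxb2 and Hoxb3 had one in every list but EB. From EB to progenitors, 2 of the 3 members without a promoter domain gained one, against 5.61% of all such genes, and 0 of 4 lost one, against 7.58%. From progenitors to noDox, 0 of 6 lost one, against 5.04%. Hoxb1 was the 1 member that lost its promoter domain between noDox and each induced line. Among all genes with a promoter domain in noDox, 3.94% lost it in iHoxc6, 7.08% in iHoxc9 and 7.2% in iHoxc10. The Hoxb1 domain in noDox was 31 bp wide, so this loss rests on a narrow domain. The EB promoter domains of Hoxb1, Hoxa2 and Hoxd3 were 25, 43 and 45 bp wide, and with domains of at least 50 bp EB kept 1 of 7 promoters and progenitors 6 of 7.

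Over the body and 1 kb upstream, 3 of the 6 members with at least 200 bp in noDox (Hoxb2, Hoxb3 and Hoxd3) were covered in iHoxc9 for at most 0.5 of noDox, against 30.3% of all genes. In iHoxc6 this held for 1 of 6 (Hoxb2), against 8.3%, and in iHoxc10 for 0 of 6, against 19.4%. A covered length of at least 2 times noDox was reached by 0 of 6 members in each line, against 0.756% of all genes in iHoxc6, 0.204% in iHoxc9 and 0.325% in iHoxc10. The median ratio to noDox of the 6 members was 0.810 for iHoxc6, 0.414 for iHoxc9 and 0.869 for iHoxc10, beside medians over 13233 genes of 0.819, 0.631 and 0.720. The members were thus near the median of all genes in iHoxc6, below it in iHoxc9 and above it in iHoxc10, with 0 of 6 members below the gene median in iHoxc10 and 5 of 6 below it in iHoxc9. The 1 member above it in iHoxc9 was Hoxd1, at 0.823.

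**Figure D5:**
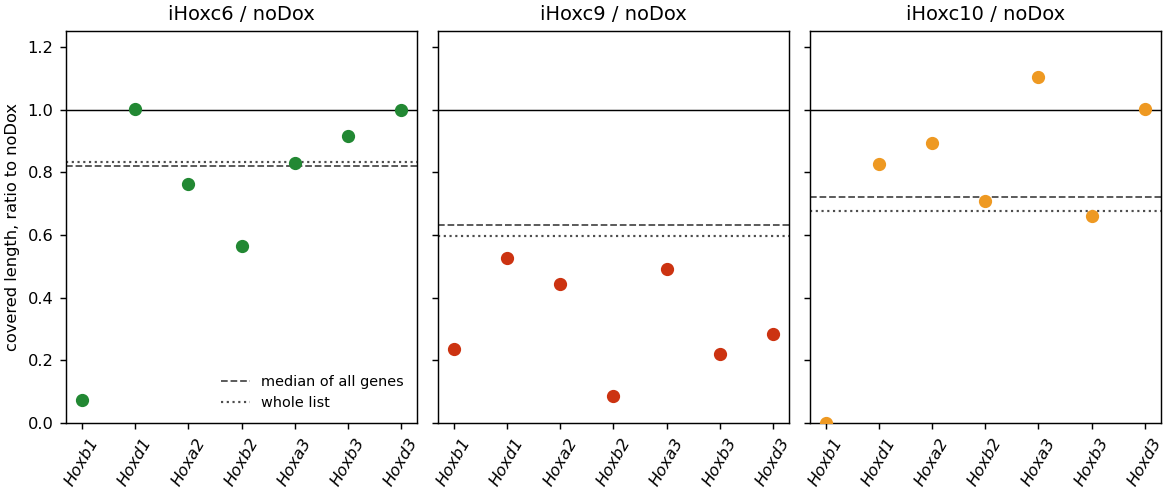
Covered length of each locus divided by that in noDox (vertical axis, linear) for the 3 induced lines, with the median ratio over 13233 genes (dashed, for body and 1 kb upstream of each gene and so another scale than the points) and the ratio of the whole lists (dotted); Hoxa3 is ended at Hoxa4 and each point is 1 pooled list. In iHoxc9 all 7 points, from 0.0872 to 0.527, lie below both lines (over body and 1 kb upstream, Hoxd1 is above them at 0.823), while in iHoxc10 the points run from 0 at Hoxb1 to 1.10 at Hoxa3.

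Counted over regions of any width, the share lacking in iHoxc9 was close to that in the genome, which did not hold for wide regions alone. Overlapping domains of the 6 lists were merged into 101 regions in the 7 loci (86 with Hoxa3 ended at Hoxa4), of which 22 were held by EB, 42 by progenitors, 60 by noDox, 55 by iHoxc6, 31 by iHoxc9 and 46 by iHoxc10. 11 of the 101 were in all 6 lists, against 11.2% in the genome, and 52 in 1 list, against 63.7%. Of the 33 held by both progenitors and noDox, 11 had no domain in iHoxc9, against 27.5% of such regions in the genome. In iHoxc6 and iHoxc10, 3 of 33 had none, against 11.7% and 26.6%. The share in iHoxc10 (9.09%), over regions of any width, was thus below the genome's. Among regions covered for at least 300 bp in both progenitors and noDox, 4 of 20 had no domain in iHoxc9, against 7.5%, 0 of 20 in iHoxc6, against 0.756%, and 1 of 20 in iHoxc10, against 4.68%. The 4 were the intronic regions of Hoxb3 and Hoxd3 printed above, the coding exon region of Hoxb2 and an intronic region near the distal Hoxa3 start (chr6:52211439-52212046). The Hoxb3 region lies partly within 1 kb of another coding start of Hoxb3. The 1 in iHoxc10 was the Hoxb3os exon region of Hoxb1.

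8 of the 29 regions held by progenitors, noDox, iHoxc6 and iHoxc10 were lacking in iHoxc9, against 11.5% in the genome. They comprised 3 in Hoxd3, 2 in Hoxb3, 2 in Hoxb2 and 1 in Hoxa3. The converse pattern was rare. Of the regions held by progenitors, noDox, iHoxc6 and iHoxc9, 1 of 22 was lacking in iHoxc10, against 10.2%, and of those held by progenitors, noDox, iHoxc9 and iHoxc10, 0 of 21 were lacking in iHoxc6, against 1.72%. Regions held by an induced line and by neither progenitors nor noDox numbered 15 for iHoxc6, 8 for iHoxc9 and 8 for iHoxc10. These were 27.3%, 25.8% and 17.4% of the regions each list held in the loci, beside 33.6%, 26.2% and 18.2% in the genome. The widest of those held by iHoxc9 were the 271 bp domain at the distal Hoxa3 start and a domain of 224 bp in an intron of Hoxa3 (chr6:52178427-52178650), where the untranslated part of 5730596B20Rik also lies. With Hoxa3 ended at Hoxa4, which leaves out the 271 bp domain, such regions were 14 of the 48 held by iHoxc6. They were then 4 of the 22 held by iHoxc9 and 7 of the 39 held by iHoxc10.

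From progenitors to noDox the anterior loci together held on to most of their regions, though Hoxb1 did not. Of the 42 regions in progenitors, 9 had no domain in noDox, against 42.9% in the genome. Of the 60 in noDox, 27 had none in progenitors, against 44%. The 9 included the regions of Hoxb1 at the start and 1.7 kb upstream, and noDox held 1 of the 4 progenitor regions of Hoxb1. These shares of the genome were not matched for region width.

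The other Hox genes were read on the same scale, with Hoxa3 ended at Hoxa4. The 7 members were covered over body and 1 kb upstream for 0.366 of noDox in iHoxc9, the 7 genes of groups 4 and 5 for 0.655, and the 7 of groups 6 to 8 for 0.405. In iHoxc10 the ratios were 0.954, 0.953 and 1.30, and in iHoxc6 0.769, 0.935 and 0.906. Genes covered in iHoxc9 for at most 0.5 of noDox numbered 5 of 7 in groups 1 to 3, 1 of 7 in groups 4 and 5 and 6 of 7 in groups 6 to 8, beside the 30.3% of all genes given above. The 5 of 7 include Hoxb1, which had 31 bp in noDox and is left out of the 3 of 6 above, and Hoxa3, which ended at Hoxa4 was at 0.492. Low coverage in iHoxc9 was thus shared with groups 6 to 8, and the difference between the groups was not tested.

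18 regulators of the anterior genes were chosen for their known roles: RA receptors and enzymes, the rhombomere factors, the Cdx factors and the Hox partners. Their promoters had a domain in 16 of 18 cases in EB, 14 in progenitors, 13 in noDox and 11 in each induced line, beside 54.8% to 61.5% of all genes over the lists. Over body and 1 kb upstream, 13 of the 14 with at least 200 bp in noDox were covered in iHoxc9 for at most 0.5 of noDox, beside 30.3% of all genes. In iHoxc6 it was 2 of 14, beside 8.3%, and in iHoxc10 3 of 14, beside 19.4%. The median ratio of the 14 was 0.744 for iHoxc6, 0.420 for iHoxc9 and 0.709 for iHoxc10, beside 0.819, 0.631 and 0.720 over all genes. The exception was the RA receptor gene Rarb, with 3565 bp in noDox and 2632 bp in iHoxc9. Meis1, a Hox partner, went from 8030 bp in noDox to 3162 bp in iHoxc9. Cyp26a1, which encodes an RA-degrading enzyme, was covered for 854 bp in progenitors, 510 bp in noDox, 125 bp in iHoxc6, 0 bp in iHoxc9 and 46 bp in iHoxc10. Over the 6 lists, the genes whose covered length ran most like the sum of the 7 members were Arg1, Crem and Trmt10a, each with a Pearson r of 0.998 on the log2 scale. With 6 points, which share the caller and gene models and differ in total covered length, 234 of the 14975 genes compared had an r over 0.95, so this likeness is common.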

How the data were processed

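ATAC-seq was done on 12 samples, 2 in each of 6 groups. Per the labels and the study's methods, the authors aligned paired-end reads to mm10 with Bowtie2 2.2.2 (Picard 2.8.2 is listed in their processing notes) and called domains with the DomainFinder program of SeqCode. The deposited values, of the unit here called other, are domain positions alone (chromosome, start and end), 1 pooled list a group with no height, score or count, so depth and counting error are unknown. The noDox list has 6 columns, of which the last 3 are constant, and the others have 3. Whether all lists were called at the same threshold is not given in the sources used here.

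BED intervals on the assembled chromosomes were used (a start may be off by 1 bp) with Python 3.11.15, pandas 2.3.3 and pysam 0.24.0. Gene models were the shortest coding GENCODE M21 transcripts tagged principal or basic. Any overlap of 1 bp counted as presence. Overlapping domains of the 6 lists were merged into regions. Ratios compare covered bp, and log2 ratios of single genes add 100 bp. With 1 list a group no test was possible. The code was tested on simulated intervals (218 checks, 0 differed). Sequences came from the GRCm38.p6 reference. Direct repeats were 2 half-sites in a row, each A or G, then G, then G or T, then TCA, on either strand.

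The genes named were the 7 members, the genes beside them, 18 regulators and the 3 genes most alike. Members, lists and alternatives were chosen with earlier results of these data known. The ending of Hoxa3 at Hoxa4, the repeat windows, the 17-base search and the 10 kb outer flanks were added after the data were seen.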

Additional observations from a re-analysis of the deposited data

How the results depend on the processing

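No paired analysis was possible because each group has 1 pooled list, which carries no replicate number; for the same reason no sample could be left out. Without a spread, a count or a covered length was taken as unchanged when it stayed within 1.5 times, and 112 of 129 values did so, as did 101 of the 105 ratios of single genes. These counts leave out the merging of domains under 200 bp apart, which altered no value because no domains in the loci lie that close, and is thus no check. The ratio of iHoxc9 to noDox over the 7 loci stayed below those of iHoxc6 and iHoxc10 under every alternative, which changed the minimum domain width, the list length, the gene model or the end of Hoxa3. Of the 17 that moved, 8 were of EB. EB promoters with a domain fell from 4 to 1 with domains of at least 50 bp, of at least 150 bp or lists of equal length (56232 domains), and were 2 with a promoter of 500 bp on each side and 7 with 5 kb. EB held 12, 8 and 9 regions instead of 22 under the first 3 settings. With domains of at least 150 bp, noDox held 36 regions, iHoxc6 33 and iHoxc9 18. The progenitor and noDox regions lacking in iHoxc10 fell from 3 to 1 under the same 3 settings, and with loss defined as under 20% covered they were 5 in iHoxc6 and 19 in iHoxc9, of 33. The covered length in iHoxc9 was 7369 bp with Hoxa3 ended at Hoxa4. Of the ratios of single genes, that of Hoxd3 in iHoxc6, -0.0024 on the log2 scale, became 0.083 with domains of at least 150 bp and 0.094 with the GENCODE gene record. Those of Hoxb1 and Hoxb2 in iHoxc9 fell further, from -1.50 to -2.47 and from -2.95 to -4.26, with domains of at least 150 bp. The cause of these shifts was not tested. Depth limits what the lists can show, since a missing domain can be a region under the caller's threshold.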

Other observations

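Beyond the 3′ end of the clusters, in 10 kb past the end of Hoxb1, EB alone held a domain of 180 bp that began 636 bp past the gene (chr11:96368893-96369072), and iHoxc6 held a domain of 37 bp further out. Progenitors, noDox, iHoxc9 and iHoxc10 held none. In 10 kb past the end of Hoxd1 no list held a domain.

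A direct repeat of the same half-sites with a spacing of 2 bases was found once in the 7 loci, 6.6 kb upstream of Hoxb1 (chr11:96359136-96359149), and no list held a domain on it. Such a repeat was present in 0.548% of all regions of 1000 bp or more. The RefSeq promoter windows of Hoxa2 and Hoxd1 (250 bases before and 50 after the start) were covered over all 300 bases in progenitors, noDox and iHoxc6. In iHoxc9 that of Hoxd1 was still covered in full and that of Hoxa2 for 54 bases, while in iHoxc10 the values were 163 and 300. Coverage of these windows thus differed in opposite directions between iHoxc9 and iHoxc10, a difference that was not tested. At Hoxd1 the domains on the start were of like width, 533 bp in iHoxc9 and 502 bp in iHoxc10, and differed in position. They ran from -275 to 257 in iHoxc9 and from -113 to 388 in iHoxc10, counted from the start.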
